A study of Mus musculus with 20 samples.

Results

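Of the 10 mouse kidney libraries that received 7-hydroxycoumarin-β-D-glucuronide (7-HCG) and cisplatin, 7 had Mt2, a metallothionein mRNA, at 80 raw CPM or more (counts scaled to the library total), and these 7 were set beside the 5 libraries that received cisplatin alone. The 12 libraries are part of a series of 20, and 3 further 7-HCG libraries under the threshold served as a reference. The question was what differs between the treatments among kidneys in which Mt2, an injury-induced gene, stood high. The selection used a measured value, so the 7 libraries are described here without a test, and every p-value below comes from all labelled 7-HCG and cisplatin libraries, whatever their Mt2.

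Whole kidneys came from male C57BL/6J mice, an inbred laboratory strain, aged 6 to 8 weeks. Cisplatin mice received vehicle and 1 intraperitoneal injection of cisplatin at 10 mg/kg, and 7-HCG mice received the compound by mouth each day for 5 days at 15 or 30 mg/kg together with that same injection on day 3. Control mice received vehicle and saline, and kidneys of all groups were collected 72 h after the injection. Both groups of the main comparison, 7-HCG and cisplatin, had therefore received cisplatin, controls are given for reference, and no group used here had 7-HCG alone. The 7 selected libraries were 3 of 5 at 15 mg/kg (replicates 2, 5 and 7) and 4 of 5 at 30 mg/kg (replicates 5, 6, 7 and 8).

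Cisplatin is a platinum drug that crosslinks DNA, and in the kidney it enters proximal tubule cells through organic cation transporters. The proximal tubule reabsorbs most filtered solutes, burns fatty acids in its mitochondria for the energy to do so, and makes glucose. Injured tubule cells lose transporters and oxidative metabolism and turn on damage genes such as Lcn2 and Havcr1. In bulk kidney RNA fewer cells of a type and less RNA per cell cannot be told apart.

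Raw Mt2 CPM in the selected libraries were 631.5, 393.6 and 232.3 at 15 mg/kg and 273.0, 577.9, 150.1 and 205.7 at 30 mg/kg. The cisplatin libraries ranged from 285.9 to 621.8, and controls from 13.5 to 27.0. The lowest selected library stood at 150.1 and the highest one left out at 54.8, and thresholds of 60 and 120 picked the same 7. Levels from here on are CPM on library sizes scaled by TMM, which assumes that most genes do not change. On that scale Mt2 was 485, 241, 277, 781 and 1449 in cisplatin replicates 2, 3, 6, 9 and 10. It was 123 to 694 in the selected libraries. Totals ran from 10714532 to 44910747 counts in cisplatin and from 25972128 to 49602115 in the selected libraries. The mean log2 CPM of 31 tubular injury markers, Mt2 not among them, was 5.54, 5.79, 5.78, 5.39 and 5.82 in cisplatin replicates 2, 3, 6, 9 and 10. In the selected libraries it was 6.33, 6.19, 5.97, 6.13, 6.85, 5.45 and 5.21, in the 3 left out 4.77, 3.72 and 3.93, and in controls 3.58 to 4.73. Of the selected libraries 5 lay above every cisplatin library, replicate 7 at 30 mg/kg lay within their range and replicate 8 at that dose lay just below it, so the levels of injury were not matched. In addition all 7 were above every control and every library left out.

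Single injury genes overlapped between the treatments. Lcn2, the gene of the urinary marker NGAL (chromosome 2, 32384633 to 32388252, GRCm38), stood at 457, 413, 285, 243 and 423 CPM in cisplatin replicates 2, 3, 6, 9 and 10, the order used throughout. Its lowest, median and highest values in the selected libraries were 156, 387 and 837. The ranges overlapped, and the 3 libraries left out stood at 40.4, 9.83 and 13.3, within the control range of 5.04 to 44.4. Cdkn1a, the gene of p21, which halts the cell cycle, stood at 195, 146, 147, 225 and 277 in cisplatin and had a lowest, median and highest of 126, 201 and 483 in the selected libraries. The differences, selected minus cisplatin, were 0.29 ± 0.50 for Lcn2 and 0.35 ± 0.41 for Cdkn1a on the log2 scale (± SE). Havcr1, the gene of the urinary marker KIM-1 (chromosome 11, 46735080 to 46779578), split the cisplatin group: replicates 2, 3 and 6 held 24.2, 58.1 and 73.01 CPM, while replicates 9 and 10 held 4.49 and 3.88, inside the control range of 0.691 to 5.796. The selected libraries spanned 25.7, 110.1 and 219.5 at lowest, median and highest. Krt20, a keratin of damaged tubules, spanned 13.7, 75.9 and 697 in the selected libraries against 30.6, 36.1, 58.8, 4.9 and 34.3 in cisplatin. Clu, the secreted chaperone clusterin, spanned 978, 1510.0 and 1727 against 561, 1158, 1014, 232 and 288, and Spp1, which encodes osteopontin, spanned 3735, 5579.8 and 13199 against 5607, 6611, 6998, 2127 and 1842. No gene of these 6 was called between all 7-HCG and cisplatin libraries, with adjusted p from 0.123 for Clu to 0.91 for Cdkn1a. Of the 31 tested injury markers 1 was called higher and 1 lower in that test (0 and 0 without cisplatin replicates 9 and 10), and the median difference of the selected libraries from cisplatin was 0.18 on the log2 scale.

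**Figure D1:**
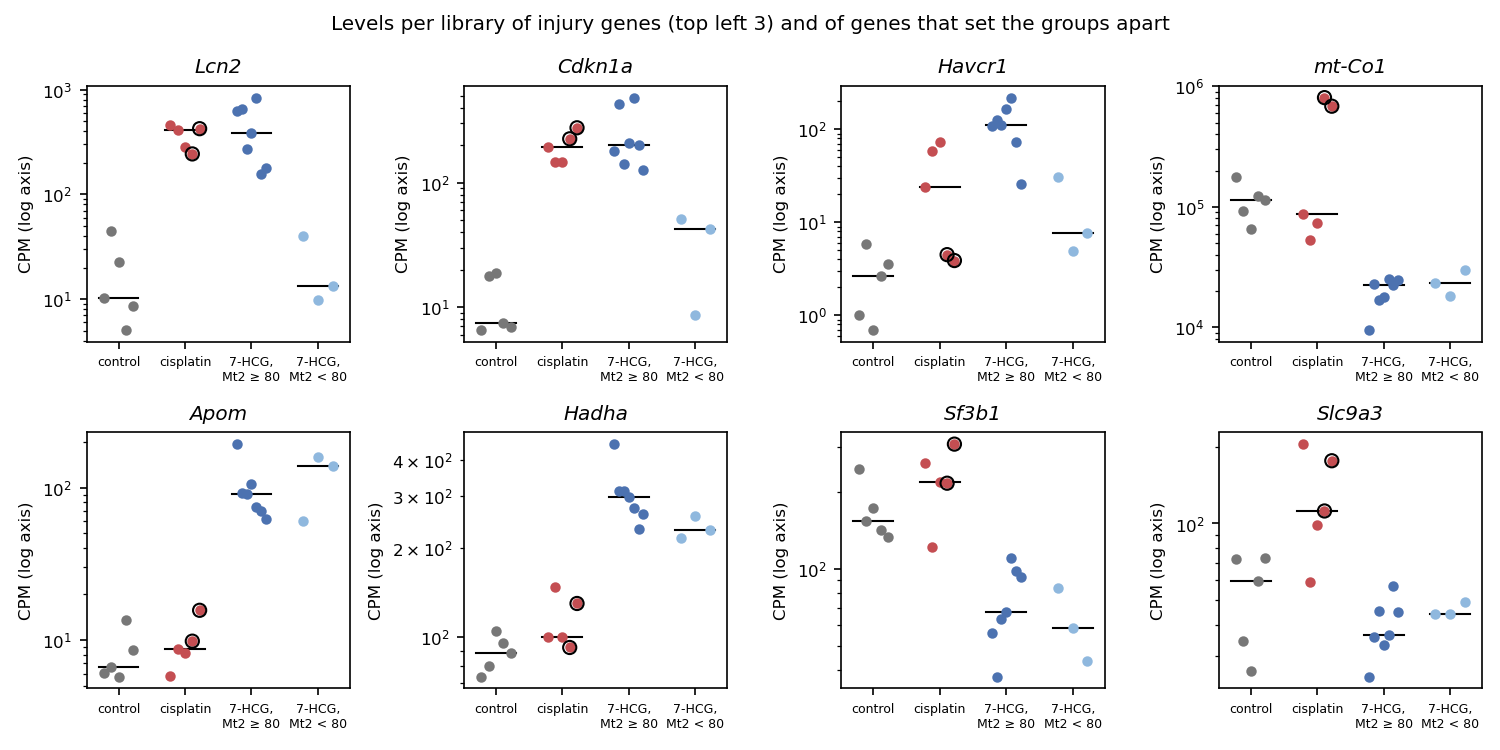
CPM of 8 genes per library on log axes, in control, cisplatin, the 7 selected 7-HCG libraries (Mt2 of 80 or more) and the 3 left out (Mt2 under 80); bars are medians and ringed points are cisplatin replicates 9 and 10. The selected and cisplatin libraries overlap for Lcn2, Cdkn1a and Havcr1 and are separate for mt-Co1, Apom, Hadha, Sf3b1 and Slc9a3.

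Between the selected and cisplatin libraries, 1169 of 14858 tested genes (7.87%) lay apart, that is, all 7 selected libraries were above or all below all 5 cisplatin libraries with mean log2 CPM at least 1 apart. Of these, 568 (3.82%) were higher and 601 (4.04%) lower in the selected libraries. In the edgeR test of all 10 7-HCG libraries against cisplatin, with all 20 libraries in the fit, 6079 genes (40.9%) were called at an adjusted p below 0.05, 2985 (20.1%) higher and 3094 (20.8%) lower. Of the 1169 genes apart, 1150 (98.4%) were also called in the same direction, which is 18.9% of the called genes. Both counts use the 7 selected and the 5 cisplatin libraries, so their overlap is no independent support. The split depended on scaling. With library totals as the only scaling the median log2 difference of all genes moved from -0.03 to 0.31, and 2283 genes were called higher and 743 lower, while 891 lay apart above and 94 below. A fit of the 15 cisplatin-treated libraries with the log2 Mt2 level as a covariate called 4421 genes. Mt2 is also the value that chose the libraries, so this fit is given as a description and supports no difference. Calls reported below as lost in that fit are likewise only a description. Counts of list members below are to be read beside these shares.

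The cisplatin group was uneven, and part of the distance rests on it. The 13 mRNAs of the mitochondrial genome made up 27.3%, 16.6%, 22.0%, 77.7% and 70.6% of the counts in cisplatin replicates 2, 3, 6, 9 and 10, 3.04% to 7.53% in the selected libraries, 5.59% to 8.01% in those left out and 24.6% to 45.5% in controls. The mean share was 6.08% ± 1.5 in 10 7-HCG libraries and 42.8% ± 29.0 in 5 cisplatin libraries (SD), a difference of -36.76 percentage points (exact 2-sided permutation test, p = 0.000333; 3003 splits can give no smaller value). Without replicates 9 and 10 it was -15.87 points (exact permutation test, p = 0.0035 over 286 splits). No 7-HCG library reached the share of any cisplatin library, so the treatment and the share cannot be told apart. With the share as a covariate 164 genes were called, and without replicates 9 and 10 3919 were called (1982 higher, 12.9%, and 1937 lower, 12.6% of those tested) and 1412 lay apart (465 above, 947 below). Without cisplatin replicate 3 alone 1817 genes lay apart. Leaving out libraries also weakens the test and eases the rule for lying apart. A call lost without replicates 9 and 10 therefore does not alone show that it rested on them.

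Mitochondrially encoded mRNAs had the lowest median of all lists in the selected libraries, and the nuclear genes of the same respiratory complexes were higher. mt-Co1, the gene of cytochrome c oxidase subunit 1 (mitochondrial genome, 5328 to 6872), stood at 87216, 52645, 72725, 806044 and 684106 CPM in cisplatin and at 9453, 22262 and 25226 at lowest, median and highest in the selected libraries. Cisplatin replicates 9 and 10 were far above the rest, and the other 3 were still above every 7-HCG library, those left out included (23292, 18277 and 29749). The difference of selected minus cisplatin was -4.10 ± 0.59, and -1.85 without replicates 9 and 10. mt-Nd5, a complex I subunit, behaved alike: 16941, 9231, 14200.1, 157851 and 71361 in cisplatin against 2339, 2746 and 3576. Its labelled difference was -4.16 ± 0.47 (adjusted p = 1.32e-05) and -2.15 without replicates 9 and 10 (adjusted p = 6.18e-05). All 13 mitochondrial mRNAs were called lower and 12 lay apart, with a median of -4.11 that became -1.88 without replicates 9 and 10. The TMM factors of replicates 9 and 10 were 0.382 and 0.429, against 1.162 to 1.186 in the other cisplatin libraries, which raises every CPM in both. With library totals as the only scaling the labelled list median went from -4.06 to -2.94, and mt-Co1 from -4.03 to -2.90. The median of all genes went from -0.03 to 0.31.

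Among nuclear genes of complex I, 21 of 36 were called higher and 0 lower, and of complexes III to V 25 of 33 were called higher and 0 lower. Ndufv1, the complex I subunit that binds NADH (chromosome 19, 4007497 to 4012806), stood at 179, 246, 170.4, 125 and 193 CPM in cisplatin and 353, 429 and 625 in the selected libraries. Each selected library exceeded each cisplatin library, and the difference was 1.33 ± 0.22 (labelled test 1.31 ± 0.20, adjusted p = 7.86e-05). Atp5b, the catalytic beta subunit of ATP synthase, stood at 807, 1223, 851, 895 and 1111 against 2076, 2589 and 3158 and differed by 1.39 ± 0.21. Cox5a, a subunit of cytochrome c oxidase, stood at 73.4, 122, 85.1, 43.4 and 70.9 against 166, 185 and 272 and differed by 1.32 ± 0.23. Only 2 of the complex I genes and 5 of the others lay apart, and without cisplatin replicates 9 and 10 the calls numbered 8 of 36 and 11 of 33, all higher. The list medians of 0.67 and 0.90 became 0.44 and 0.65, beside 0.02 for all genes. Cisplatin minus control had list medians of -0.05 and -0.08. Controls spanned 127 to 251 for Ndufv1 and 777 to 1343 for Atp5b.

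Genes of fatty acid oxidation held the largest share of separate members among the higher lists. Of 37 tested genes of this pathway and of the lipid sensor PPARalpha, 22 were called higher and 0 lower, and 17 lay apart, all higher, among them Cpt2, Acadm, Acads, Hadha, Hadhb, Hadh, Ehhadh, Acaa1b, Acaa2, Eci1, Decr1, Etfdh, Cyp4a14, Cyp4b1, Acot1 and Vnn1. Without cisplatin replicates 9 and 10 17 were called higher and 0 lower, and the median of 1.02 became 0.96. Hadha, the alpha subunit of the mitochondrial trifunctional protein that carries out the later steps of each oxidation round (chromosome 5, 30118304 to 30155162), stood at 100.2, 148, 100.1, 92.3 and 130.1 CPM in cisplatin. The selected libraries held 232, 299 and 451, the libraries left out 217, 257 and 231, and controls 73.5 to 105. All 7-HCG libraries, selected or not, lay above cisplatin and above control. The difference was 1.42 ± 0.18 for the selected libraries and 1.31 ± 0.18 in the labelled test (adjusted p = 4.13e-05). Hadh, the short-chain hydroxyacyl-CoA dehydrogenase, stood at 169, 233, 208, 147 and 222 against 457, 495 and 629 and differed by 1.38 ± 0.20. Etfdh, which passes electrons from fatty acid oxidation to ubiquinone, stood at 33.7, 43.4, 40.002, 56.9 and 58.5 against 78.3, 101 and 113 and differed by 1.10 ± 0.17.

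Genes of glucose metabolism were mostly higher. In the list of glycolysis and gluconeogenesis genes 13 of 21 were called higher and 1 lower (9 and 1 without cisplatin replicates 9 and 10), and 7 lay apart, all higher. Fbp1, fructose-1,6-bisphosphatase and a committed step of glucose production in the proximal tubule (chromosome 13, 62864753 to 62888282), stood at 162, 278, 241, 242 and 340.5 CPM in cisplatin, 732, 913 and 1280.3 in the selected libraries and 838, 1077 and 1527 in those left out. The groups did not overlap, and controls reached 421. Its difference was 1.92 ± 0.31, and the labelled test gave 2.01 ± 0.31 (adjusted p = 8.93e-05). Pcx, pyruvate carboxylase, the entry step of gluconeogenesis, stood at 217, 262, 246, 162 and 242 against 435, 562 and 908 and differed by 1.43 ± 0.22. Pgk1, a glycolytic kinase that also works in reverse, stood at 160.2, 236, 187, 124 and 153 against 292, 407 and 555 and differed by 1.25 ± 0.21.

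Transporters of the proximal tubule were higher, with 1 exception that lay apart in the other direction. Of 40 tested transporters and endocytic receptors 23 were called higher and 2 lower (18 and 1 without cisplatin replicates 9 and 10). Slc5a8, Slc5a10, Slc6a20b, Slc3a1, Slc22a12, Slc17a1, Slc17a3, Lrp2 and Cubn lay apart above cisplatin, and Slc9a3 lay apart below. Slc3a1, the heavy subunit of the cystine transporter (chromosome 17, 85028347 to 85064243), stood at 37.4, 48.4, 56.4, 25.5 and 54.8 CPM in cisplatin and 81.6, 224 and 312 in the selected libraries, a difference of 2.21 ± 0.37. Lrp2, the endocytic receptor megalin (chromosome 2, 69424340 to 69586065), stood at 172, 252, 269, 119 and 131 against 332, 409.8 and 659, and higher still at 737, 773 and 836 in the libraries left out. For Lrp2 the difference from cisplatin was 1.28 ± 0.29 in the selected libraries and 1.56 ± 0.32 over all 7-HCG libraries (adjusted p = 0.000862). Slc17a3, a urate and phosphate transporter, stood at 86.1, 118, 124, 93.8 and 91.9 against 200.4, 259.8 and 322. Controls spanned 11.1 to 58.9 for Slc3a1, 163 to 609 for Lrp2 and 62.8 to 253 for Slc17a3. Cisplatin itself differed little from control over this list, with a median log2 difference of -0.18.

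Slc34a1, the main phosphate transporter of this segment, did not separate the groups. It stood at 639, 1029.9, 1219.8, 779.9 and 2574 in cisplatin, where replicate 10 lay above the median of the selected libraries (1113, 2547 and 3155). Its labelled call (1.26 ± 0.40, adjusted p = 0.0166) was lost without cisplatin replicate 2 (1.10, adjusted p = 0.0531), without replicate 9 (1.14, adjusted p = 0.0512) and with Mt2 as a covariate (0.76, adjusted p = 0.229). Slc9a3, the sodium-proton exchanger NHE3 (chromosome 13, 74121515 to 74169442), ran the other way: 205, 58.96, 98.6, 112 and 176 in cisplatin and 24.96, 36.3 and 56.8 in the selected libraries. No selected library reached the lowest cisplatin library, and controls spanned 26.3 to 73.2. The difference was -1.72 ± 0.28, and -1.65 ± 0.26 in the labelled test (adjusted p = 9.27e-05).

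Of 24 tested carriers that move cisplatin and other organic ions, 12 were called higher and 0 lower (6 and 0 without cisplatin replicates 9 and 10), and 4 lay apart, all higher. Slc22a6, the organic anion transporter OAT1 (chromosome 19, 8617996 to 8628299), stood at 230.0, 420.2, 364, 345 and 261 CPM in cisplatin and 653, 815 and 892 in the selected libraries. The lowest selected library held more than the highest cisplatin library, and the difference was 1.29 ± 0.29 (labelled 1.31 ± 0.28, adjusted p = 0.00101). Cldn2, the claudin that forms cation and water pores between proximal tubule cells (chromosome X, 139800828 to 139811386), stood at 75.7, 137, 149, 37.97 and 51.5 against 221, 404 and 485 and differed by 2.07 ± 0.37. Controls spanned 161 to 713 for Slc22a6 and 35.5 to 149 for Cldn2. Markers of the S3 segment, the straight end of the proximal tubule, were called higher for 9 of 12 genes and lower for 0 (3 and 0 without replicates 9 and 10).

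Further along the nephron the picture was mixed. Of 33 thick limb, distal and collecting duct genes 5 were called higher and 4 lower (2 and 2 without cisplatin replicates 9 and 10), and 0 lay apart in either direction. Umod, the gene of uromodulin, made in the thick ascending limb, stood at 1252, 1652, 1170.3, 401 and 254 CPM in cisplatin and 1651, 2242 and 4079.9 in the selected libraries. Cisplatin replicates 9 and 10 were the lowest, and the highest of the other 3 reached the lowest selected library. The difference of 1.39 ± 0.39 became 0.88 without them, and controls spanned 489 to 1556. Transcription factors of tubule identity were called higher for 4 and lower for 6 of 24 genes (3 and 6 without those replicates).

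Enzymes that conjugate drugs with glucuronic acid or sulfate were mostly higher, with wide spread. Of 17 tested genes 10 were called higher and 2 lower (6 and 0 without cisplatin replicates 9 and 10), and 0 lay apart. Ugt1a7c, a glucuronosyltransferase, stood at 1.93, 3.62, 3.301, 11.7 and 8.51 CPM in cisplatin and 7.14, 35.8 and 44.8 in the selected libraries. The lowest selected library fell within the cisplatin range and the median was above it. Members of the Ugt1a cluster share exons, so their counts may be divided among copies. Ugt2b38 stood at 43.4, 95.6, 66.3, 27.1 and 18.9 against 71.3, 217 and 391, with 439, 620.1 and 568 in the libraries left out. Sult1a1, a sulfotransferase for phenols, was lower, 68.6, 44.7, 34.4, 141 and 116 in cisplatin against 24.3, 32.6 and 51.04. Its call (-1.43 ± 0.29, adjusted p = 0.000856) was lost without cisplatin replicates 9 and 10 (-0.70, adjusted p = 0.0836).

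**Figure D2:**
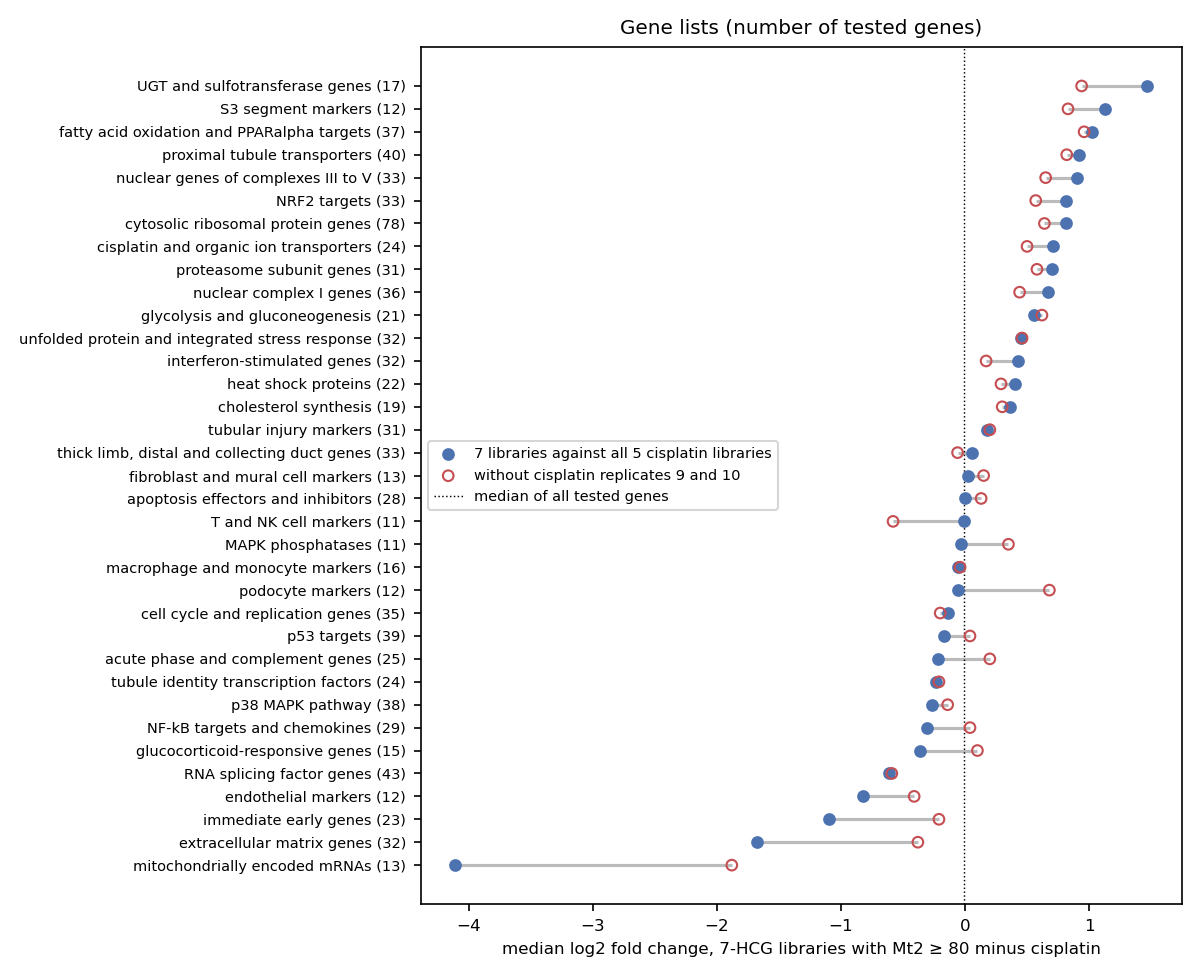
Median log2 fold change of 35 gene lists, selected 7-HCG libraries minus cisplatin (filled), and the same without cisplatin replicates 9 and 10 (open); the number of tested genes is in parentheses. Fatty acid oxidation (1.02 and 0.96) and splicing factors (-0.61 and -0.59) hardly move when these replicates are left out, while matrix genes go from -1.68 to -0.38.

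Targets of NRF2, the transcription factor that turns on antioxidant and detoxifying genes, were called higher for 10 of 33 and lower for 0. Me1, Gsta3, Fth1, Prdx1 and Esd lay apart above cisplatin. Without cisplatin replicates 9 and 10 7 were called higher and 0 lower. NRF2 binds the antioxidant response element, and the 3 promoters below are shown because they belong to separate genes of this list and hold its core, TGACNNNGC on either strand (in capitals). They are RefSeq windows of GRCm38.p6, from 250 bases before to 50 after the start site, written 5′ to 3′ on the gene's strand: chr1:21240335-21240634 on the plus strand for Gsta3, chr9:86695865-86696164 on the minus strand for Me1 and chr4:116685349-116685648 on the plus strand for Prdx1.
Gsta3: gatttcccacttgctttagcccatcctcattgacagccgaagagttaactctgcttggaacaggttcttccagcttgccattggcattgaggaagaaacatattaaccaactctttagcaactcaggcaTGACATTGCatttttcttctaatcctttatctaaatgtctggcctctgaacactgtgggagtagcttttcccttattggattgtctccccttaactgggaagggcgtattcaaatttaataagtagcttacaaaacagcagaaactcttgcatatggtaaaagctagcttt
Me1: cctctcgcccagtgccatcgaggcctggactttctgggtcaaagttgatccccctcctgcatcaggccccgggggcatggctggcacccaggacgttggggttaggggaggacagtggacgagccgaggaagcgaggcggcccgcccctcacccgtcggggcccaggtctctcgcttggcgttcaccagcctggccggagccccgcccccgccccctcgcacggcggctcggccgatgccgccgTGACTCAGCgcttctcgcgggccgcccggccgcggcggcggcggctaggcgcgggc
Prdx1: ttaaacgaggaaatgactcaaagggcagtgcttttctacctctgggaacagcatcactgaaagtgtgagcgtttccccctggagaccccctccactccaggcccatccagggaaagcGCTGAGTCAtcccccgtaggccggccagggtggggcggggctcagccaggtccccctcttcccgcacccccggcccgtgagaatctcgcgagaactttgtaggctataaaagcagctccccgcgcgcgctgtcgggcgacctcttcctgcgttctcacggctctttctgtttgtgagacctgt
The core starts 121 bases before the start site in Gsta3 and 6 before it in 1 of the 2 Me1 promoters listed, both on the gene's strand, and 133 before it on the opposite strand in Prdx1. It is a short motif, found in 12.4% of 32851 RefSeq promoters, in at least 1 promoter of 16.8% of the 11267 tested genes that matched, and in 11 of the 29 NRF2 targets that matched. It was kept from 6 motifs searched, after the matches had been seen. Of 48 named genes that lay apart and matched, 7 hold it.

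Gsta3, a glutathione transferase (chromosome 1, 21240589 to 21265661), stood at 34.2, 72.5, 52.6, 38.5 and 86.2 CPM in cisplatin, 117, 199.7 and 390.5 in the selected libraries and 118, 112 and 119.8 in those left out, with controls at 19.9 to 30.8. All 7-HCG libraries were above all cisplatin libraries. The difference was 1.92 ± 0.27, and 1.70 ± 0.30 in the labelled test (adjusted p = 0.000222). Me1, the cytosolic malic enzyme that supplies NADPH, stood at 122, 139, 139.7, 85.8 and 92.3 in cisplatin against 180.2, 293 and 337, with controls at 165 to 281. Cisplatin was the low group for this gene, since its highest library was below the lowest control. Prdx1, a peroxiredoxin that removes peroxides, stood at 365, 568, 471, 241 and 430.3 against 754, 949 and 1407 and differed by 1.33 ± 0.24. Hmox1, heme oxygenase 1 and a familiar NRF2 target, overlapped, at 55.5, 83.5, 74.7, 43.7 and 81.6 against 62.7, 115 and 261. It was not called in the labelled test (0.65 ± 0.42, adjusted p = 0.217).

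Heat shock genes were called higher for 8 of 22 and lower for 1 (5 and 0 without cisplatin replicates 9 and 10), and 2 lay apart, the mitochondrial chaperone genes Hspa9 and Hspe1. Hspa9 stood at 236, 287, 252, 210.0 and 245 CPM in cisplatin and 359, 483 and 722 in the selected libraries, and Hspe1 at 38.7, 72.2, 57.4, 30.1 and 48.5 against 91.7, 101 and 148. Their differences were 1.05 ± 0.19 and 1.14 ± 0.22. Hspa1a, the inducible cytosolic Hsp70, which has a near-identical neighbour, overlapped at 11.7, 17.1, 12.96, 8.47 and 29.3 against 12.5, 13.2 and 19.6 and was not called (adjusted p = 0.62). Genes of the unfolded protein and integrated stress response were called higher for 9 and lower for 3 of 32 (5 and 0 without those replicates).

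The largest rises belonged to genes of lipid transport, detoxification and the proximal tubule. Apom, the lipid carrier apolipoprotein M (chromosome 17, 35128997 to 35132050), stood at 5.79, 8.69, 8.199, 9.799 and 15.6 CPM in cisplatin. The selected libraries held 62.1, 90.4 and 193, those left out 60.3, 159 and 138, and controls 5.72 to 13.6. Every 7-HCG library was far above every library without 7-HCG, and the selected and left-out libraries overlapped. The difference from cisplatin was 3.37 ± 0.35 for the selected libraries and 3.44 ± 0.34 in the labelled test (adjusted p = 4.4e-06). Dpys, dihydropyrimidinase of pyrimidine breakdown, stood at 2.57, 3.46, 1.24, 3.16 and 3.25 against 9.35, 15.02 and 23.03 and differed by 2.46 ± 0.42. The control range of Dpys, 1.19 to 10.5, reached into that of the selected libraries.

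Ces1d and Ces2c, carboxylesterases that hydrolyse esters and drugs, differed by 2.43 ± 0.38 and 2.18 ± 0.44. Ces1d stood at 35.9, 75.6, 63.6, 9.799 and 16.1 in cisplatin against 191, 217 and 246, and Ces2c at 21.8, 36.99, 25.5, 18.5 and 8.38 against 38.8, 118 and 144. The cytochrome P450 genes Cyp4b1 and Cyp2d26 differed by 2.32 ± 0.40 and 1.94 ± 0.34. Cyp4b1 stood at 214, 247, 229, 82.6 and 125 against 481, 894 and 1162 and was higher still in the libraries left out, at 1249, 1621 and 2934. Gpx1, glutathione peroxidase 1 (chromosome 9, 108339054 to 108340343), was among the more abundant of these mRNAs, at 1265, 1632, 1723, 552 and 958 CPM against 3615, 4946 and 7975, and differed by 2.15 ± 0.33. Its lowest selected library held more than the highest cisplatin or control library. Mogat2, a monoacylglycerol acyltransferase, differed by 2.19 ± 0.46, and F13b, the B subunit of coagulation factor XIII, by 2.14 ± 0.30, with F13b at 7.47, 8.56, 15.1, 6.02 and 9.63 against 23.96, 41.1 and 55.1. Apom, Dpys, Ces1d, Ces2c, Cyp4b1, Cyp2d26, Gpx1, Mogat2, F13b, Slc3a1 and Cldn2 all kept their labelled call with library totals as the only scaling. They were also called without cisplatin replicates 9 and 10, where the rule that named them had already required the same direction.

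**Figure D3:**
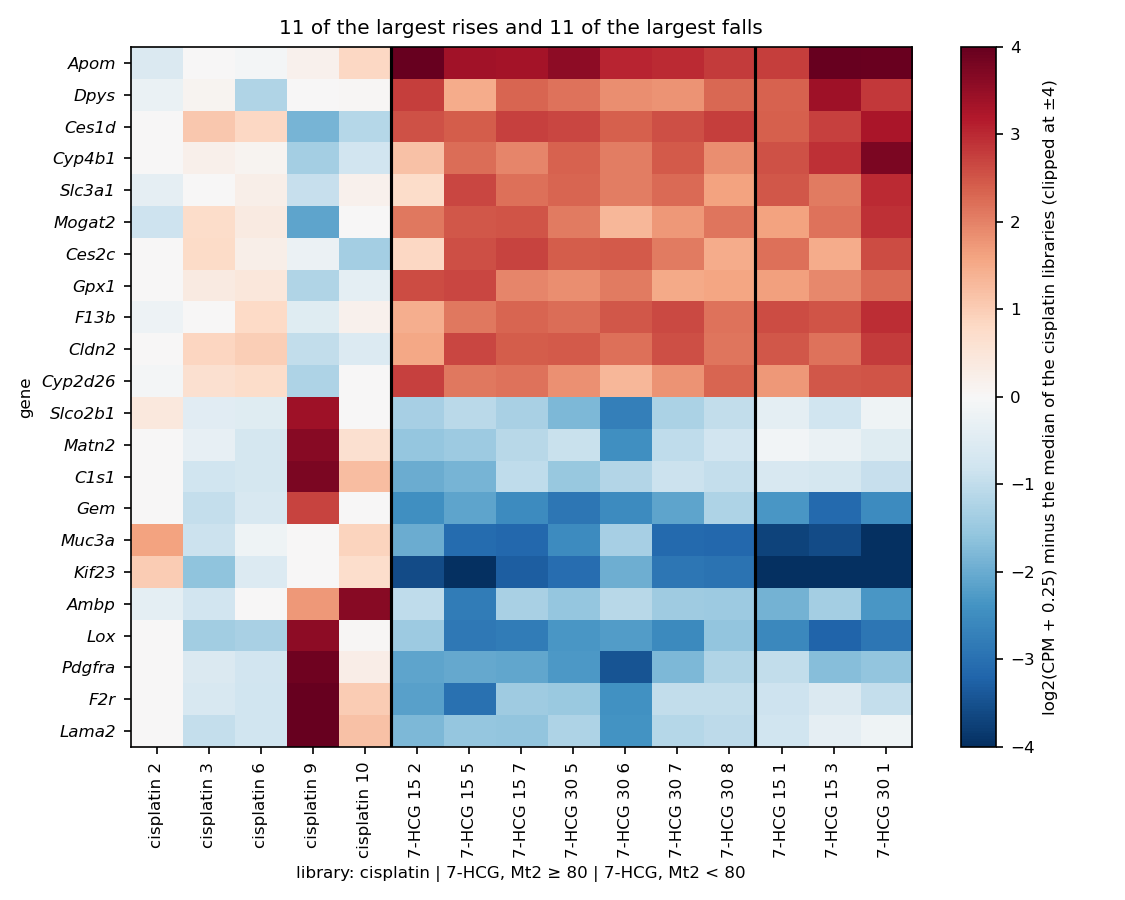
Log2(CPM + 0.25) of 11 of the largest rises and 11 of the largest falls in each library, minus the median of the cisplatin libraries, clipped at ±4; lines divide cisplatin, the selected 7-HCG libraries and those left out. Rises are high in all 10 7-HCG libraries, while 8 of the 11 falls have their highest value in cisplatin replicate 9.

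Protein synthesis and protein breakdown genes were higher and splicing genes lower. Cytosolic ribosomal protein genes were called higher for 46 of 78 and lower for 0, and 6 lay apart (23 called higher without cisplatin replicates 9 and 10). Their near-identical pseudogenes may take some reads. Rpl5 stood at 198, 313, 218, 258 and 266 CPM in cisplatin and 428, 572 and 804 in the selected libraries, a difference of 1.23 ± 0.20. Rps4x stood at 215, 309, 215, 221 and 247 against 369.8, 515 and 880.3, and Rpl3 at 181, 274, 191, 293 and 286 against 362, 499.6 and 783. Proteasome subunit genes were called higher for 23 of 31 and lower for 0 (19 and 0 without those replicates). Psmd13, of the regulatory particle (chromosome 7, 140881968 to 140898643), stood at 38.9, 58.99, 38.05, 24.5 and 50.8 against 86.2, 112 and 175 and differed by 1.5 ± 0.23. Psmd7 was tight within each group, at 47.3, 52.5, 44.3, 46.3 and 45.03 against 76.4, 93.3 and 105, and did not overlap between them; its difference of 0.96 ± 0.13 was too small for the 2-fold rule. Psmb7, a catalytic subunit, stood at 11.8, 29.5, 21.6, 25.1 and 31.4 against 44.9, 59.1 and 86.3. Controls spanned 173 to 292 for Rpl5 and 41.5 to 57.2 for Psmd7. Cisplatin minus control had list medians of 0.05 for ribosomal protein genes and -0.12 for proteasome genes.

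RNA splicing factor genes were called lower for 27 of 43 and higher for 2, and 14 lay apart, all lower. Without cisplatin replicates 9 and 10 24 were called lower and 1 higher. With library totals as the only scaling the labelled list median went from -0.66 to -0.35, beside 0.31 for all genes. Cisplatin minus control had a list median of 0.17. Sf3b1, a core subunit of the U2 snRNP (chromosome 1, 54985169 to 55027481), stood at 259, 122, 219, 217 and 308 CPM in cisplatin, 37.8, 67.6 and 111 in the selected libraries and 84.2, 58.7 and 43.7 in those left out, and at 134 to 246 in controls. No 7-HCG library reached the lowest cisplatin or control library. The difference was -1.58 ± 0.26, and -1.68 ± 0.22 in the labelled test (adjusted p = 3.58e-05). Son, a large nuclear speckle protein, stood at 246, 119.6, 193, 208 and 275 against 46.02, 88.8 and 108 and differed by -1.36 ± 0.22. Srsf7, a splicing regulator rich in serine and arginine, stood at 77.3, 48.7, 69.3, 76.9 and 62.7 against 21.1, 29.7 and 42.8 and differed by -1.16 ± 0.19.

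The difference varied with transcript length across genes. Of the tested genes, 14329 (96.4%) had a protein-coding transcript in GENCODE vM21, and their median transcript lengths were divided into quartiles. From the shortest to the longest quartile the median difference of selected minus cisplatin libraries was 0.41, 0.09, -0.08 and -0.30, and 0.36, 0.11, -0.07 and -0.26 without cisplatin replicates 9 and 10. In the shortest quartile 7.98% of genes lay apart above and 1.62% below, and in the longest 1.23% above and 6.09% below. Spearman's rho across genes was -0.325, or -0.34 without those replicates, as a description, since genes share libraries and are no replicates. Between the selected libraries and those left out the quartile medians were 0.09, 0.01, 0.04 and 0.08. This comparison was added after the names of the separate genes had been seen, and the part of transcript length in the differences above was not tested.

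**Figure D4:**
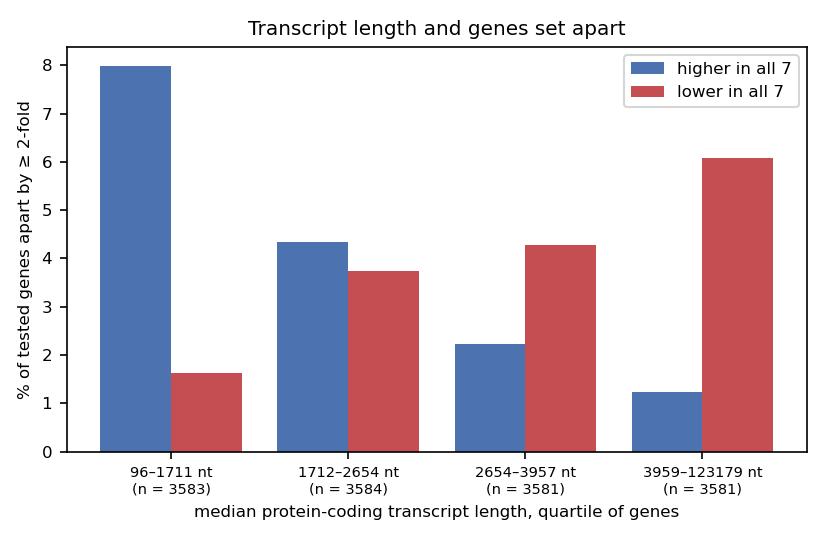
Percentage of tested genes in each quartile of protein-coding transcript length that lay apart above (blue) or below (red) cisplatin in all 7 selected libraries. The share above drops from 7.98% to 1.23% with length, and the share below climbs from 1.62% to 6.09%.

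Most calls among stress kinase and early response genes were lower, and there were fewer of them without cisplatin replicates 9 and 10. In the p38 MAPK pathway, a kinase cascade that responds to stress, 15 of 38 genes were called lower and 2 higher, and 7 and 1 without those replicates. The labelled list median of -0.37 became 0.04 with library totals as the only scaling, beside -0.03 and 0.31 for all genes. Map3k1 and Mef2c lay apart below, 2 of 38, beside 4.04% of all genes. Map3k1, an upstream kinase (chromosome 13, 111746428 to 111808993), stood at 67.6, 53.3, 72.4, 79.01 and 68.4 CPM in cisplatin against 14.8, 26.7 and 44.6 and differed by -1.33 ± 0.23; it was called (adjusted p = 7.62e-05) and remained so without replicates 9 and 10 (-1.49, adjusted p = 0.00112). Map3k3 stood at 52.4, 18.7, 36.2, 50.7 and 28.9 against 5.899, 13.9 and 21.4 and differed by -1.46 ± 0.26. Map3k6 stood at 87.2, 21.3, 26.98, 173 and 278 against 14.3, 14.9 and 42.5, with the highest values in replicates 9 and 10, and its difference of -2.43 ± 0.48 became -1.08 without them. The kinase genes themselves overlapped: Mapk14, which encodes p38 alpha, stood at 59.2, 56.5, 64.1, 52.9 and 136 against 60.97, 81.8 and 91.2. Mapk13, p38 delta, stood at 35.1, 39.03, 33.2, 47.4 and 138 against 27.6, 40.9 and 82.7, and neither was called (adjusted p = 0.459 and 0.212). Without replicate 10, the highest library for both, Mapk14 was called higher (0.54, adjusted p = 0.00901).

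Immediate early genes, the first to answer a stimulus, were called lower for 13 of 23 and higher for 0, but for 2 and 0 without replicates 9 and 10. The latter is a share under the 12.6% of all genes called lower there. The median difference of the list, selected minus cisplatin, was -1.1 and became -0.21 without those replicates. Nr4a2, a nuclear receptor of this class, was the 1 member of 23 that lay apart, beside 4.04% of all genes lying apart below. It stood at 4.58, 0.751, 1.31, 3.27 and 4.63 CPM in cisplatin against 0.107, 0.401 and 0.732. The difference was -2.74 ± 0.61, at levels near the floor that 3 counts set. Nr4a1 stood at 21.4, 7.21, 8.98, 68.5 and 60.8 against 4.62, 6.17 and 10.1, and its difference of -2.35 ± 0.43 became -0.95 without replicates 9 and 10. Atf3, a stress-induced transcription factor, stood at 17.8, 14.98, 23.6, 34.5 and 121 against 9.47, 16.5 and 23.0, with replicate 10 far above all others. Its call (-1.74 ± 0.53, adjusted p = 0.0137) was lost without that replicate (-0.84, adjusted p = 0.176) and under scaling by library totals alone (adjusted p = 0.118). Dusp1, a phosphatase that switches off MAP kinases, stood at 68.8, 25.2, 44.97, 122 and 131 against 13.9, 29.3 and 37.8, and its call (adjusted p = 0.00216) was lost without replicates 9 and 10 (-0.76, adjusted p = 0.142) and with library totals (adjusted p = 0.0618).

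Targets of p53, which DNA damage switches on, went both ways, with 5 of 39 called higher and 12 lower (3 and 5 without replicates 9 and 10). Triap1, a small p53-induced inhibitor of apoptosis (chromosome 5, 115341225 to 115343569), was the 1 member apart, at 5.95, 8.79, 7.21, 10.5 and 12.3 CPM in cisplatin, 18.2, 22.3 and 35.7 in the selected libraries and 6.604 to 12.9 in controls. Its difference was 1.43 ± 0.22 (labelled 1.37 ± 0.21, adjusted p = 9.43e-05). Mdm2, the ubiquitin ligase that restrains p53, stood at 71.4, 53.2, 88.8, 43.4 and 133 against 22.7, 44.0 and 74.1. These ranges overlapped, and the call over all 7-HCG libraries (-1.03 ± 0.30, adjusted p = 0.00979) was lost with Mt2 as a covariate (-0.60, adjusted p = 0.172), without cisplatin replicate 10 (-0.75, adjusted p = 0.0576) and with library totals (adjusted p = 0.174). Without replicates 9 and 10 together the call was kept by a small margin (-0.90, adjusted p = 0.0452). Bax, a pro-apoptotic pore former, stood at 63.3, 72.8, 72.9, 52.8 and 74.4 against 44.8, 58.04 and 97.1 and was not called (adjusted p = 0.305). Gadd45b stood at 22.5, 23.5, 18.1, 58.4 and 119 against 10.4, 13.3 and 19.5, and Plk3, a stress kinase, at 88.5, 22.5, 59.7, 169 and 838 against 16.5, 34.1 and 85.4. Both were called (adjusted p = 0.00101 and 0.00153) and both calls were lost without replicates 9 and 10 (adjusted p = 0.122 and 0.231); without replicate 10 alone the labelled differences went from -1.94 to -1.27 and from -2.93 to -1.46.

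Of 28 apoptosis effectors and inhibitors 9 were called higher and 8 lower (4 and 3 without replicates 9 and 10), and 0 lay apart. Birc2, an inhibitor of apoptosis, stood at 65.1, 29.4, 51.9, 30.5 and 36.3 CPM in cisplatin against 12.4, 18.8 and 34.7 and was called lower (-1.20 ± 0.22, adjusted p = 0.000345). Bid, which carries the death signal to mitochondria, stood at 26.8, 23.7, 35.5, 20.3 and 32.8 against 27.6, 54.5 and 62.97 and was called higher (0.98 ± 0.20, adjusted p = 0.000966). A few libraries of the 2 groups overlapped for each.

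Most of the largest falls were set against 1 cisplatin library, among them matrix genes such as Lama2, Lox and Matn2. Lama2, the laminin alpha 2 chain (chromosome 10, 26981285 to 27616843), stood at 8.92, 4.49, 5.04, 214 and 20.5 CPM in cisplatin and 1.501, 2.87 and 4.22 in the selected libraries. Replicate 9 was far above the rest, and the lowest of the others still exceeded all 7 selected libraries. The difference of -4.04 ± 0.76 became -0.99 without replicates 9 and 10. F2r, the thrombin receptor PAR1, stood at 26.1, 16.8, 14.8, 542 and 52.5 against 3.06, 9.15 and 13.1. Pdgfra, the growth factor receptor that marks fibroblasts, stood at 24.5, 16.4, 14.3, 366 and 29.6 against 2.01, 5.55 and 10.6, and Lox, which crosslinks collagen, at 18.1, 6.78, 7.13, 219 and 18.9 against 2.28, 3.402 and 6.501. C1s1, a complement protease, stood at 20.7, 11.8, 12.6, 286 and 48.8 against 5.02, 9.04 and 11.2, and Matn2, a matrix adaptor, at 11.1, 8.82, 6.74, 141 and 17.3 against 1.83, 4.99 and 6.41. Gem, a small GTP-binding protein, stood at 25.1, 12.6, 15.8, 163 and 24.6 against 3.14, 4.29 and 10.3, and Slco2b1, an organic anion carrier, at 37.05, 19.9, 19.4, 292 and 27.4 against 3.88, 10.97 and 13.9. Controls spanned 17.3 to 44.4 for Lama2, 34.6 to 64.2 for F2r, 22.9 to 99.8 for Pdgfra and 30.3 to 71.4 for C1s1. The libraries left out reached into the cisplatin range for Lama2 (4.98 to 7.97), F2r (13.3 to 17.3) and C1s1 (10.9 to 13.2). They did so for Matn2 (7.83 to 10.3) and Slco2b1 (15.8 to 24.1) too, and lay below it for Pdgfra, Lox and Gem.

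In each of these genes replicate 9 was the highest cisplatin library, and without it alone the labelled difference went from -3.61 to -1.20 for Lama2, from -3.65 to -1.40 for F2r, from -3.71 to -1.61 for Pdgfra and from -4.0 to -1.91 for Lox. It went from -3.33 to -2.02 for Gem, from -2.99 to -1.28 for C1s1, from -2.58 to -0.96 for Slco2b1 and from -2.63 to -0.87 for Matn2, whose call was lost (adjusted p = 0.0647). Without both replicates the calls of Lama2, F2r, C1s1, Matn2 and Slco2b1 were lost, with adjusted p of 0.334, 0.0866, 0.114, 0.295 and 0.0918. The summed CPM of 13 fibroblast and mural cell markers, Pdgfra among them, was also highest in replicate 9 at 938.6, with 248.7 to 368.9 in the other cisplatin libraries and 228.6 to 532.7 in the selected ones. Over all 5 cisplatin libraries its median was 283.9 and over the selected ones 306.9, and 3 of its genes were called higher and 4 lower. That of 12 endothelial markers was 1170.8 in replicate 9, 361.0 to 481.3 in the others and 108.2 to 498.8 in the selected libraries. The part of these cells in the falls was not tested. Matrix genes were called lower for 18 of 32 and higher for 0, but for 1 and 0 without replicates 9 and 10. Acute phase and complement genes were called higher for 2 and lower for 7 of 25 (2 and 2 without those replicates).

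Kif23 and Muc3a were low in all 7-HCG libraries without resting on replicates 9 and 10. Kif23, a kinesin of dividing cells (chromosome 9, 61917280 to 61946774), stood at 102, 16.5, 34.6, 50.5 and 82.7 CPM in cisplatin, 0.741, 5.87 and 12.8 in the selected libraries, 1.32, 1.29 and 0.186 in those left out and 6.54 to 21.6 in controls. The difference of -3.28 ± 0.54 was -3.15 without the 2 replicates. Muc3a, a membrane mucin, stood at 24.99, 4.36, 7.13, 8.06 and 15.1 against 0.694, 0.741 and 3.04, and its difference of -3.23 ± 0.56 was -3.29 without them. Cell cycle and replication genes as a list were called higher for 5 and lower for 5 of 35 (6 and 3 without those replicates). In the full test 20.1% of all genes were called higher and 20.8% lower. Mki67, Bub1, Bub1b and Plk1, all of mitosis, lay apart below cisplatin, 4 of 35 beside 4.04% of all genes. Tyms and Mcm6 of the same list were higher in all 7 selected libraries than in any cisplatin library, by less than 2-fold. Plk1, a mitotic kinase, stood at 2.97, 1.43, 2.31, 5.002 and 1.38 against 0.11, 0.463 and 1.24, close to the floor of 3 counts, which was 0.0605 to 0.28 CPM per library. Ambp, the precursor of alpha-1-microglobulin and bikunin, stood at 5.22, 3.94, 6.92, 23.8 and 89.1 against 0.772, 2.4 and 3.29; its labelled difference of -3.53 was -2.15 without replicate 10, and its call was lost with Mt2 as a covariate (adjusted p = 0.0518).

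Calls among inflammatory genes were fewer without cisplatin replicates 9 and 10, as were calls over all genes (3919 against 6079). NF-kB targets and chemokines were called lower for 9 and higher for 2 of 29 (2 and 0 without replicates 9 and 10, a share under the 12.6% of all genes called lower there), with a labelled median of -0.40 that was 0.00 with library totals as the only scaling, beside -0.03 and 0.31 for all genes. Nfkbiz, an inducible NF-kB cofactor, stood at 52.2, 26.6, 60.1, 26.7 and 114 CPM in cisplatin against 6.33, 14.3 and 29.8 and was called lower (-2.23 ± 0.39, adjusted p = 0.000289). Osmr, the oncostatin M receptor, stood at 41.1, 14.6, 27.9, 139 and 24.9 against 7.72, 13.2 and 16.8; it was called lower by 2.03 on the log2 scale, or -1.16 without replicate 9. Interferon-stimulated genes were called higher for 6 and lower for 3 of 32 (1 and 1 without those replicates). Of 5 tested neutrophil markers 4 were called lower and 0 higher, and 1 and 0 without replicates 9 and 10. Their summed CPM was 17.8 and 50.4 in cisplatin replicates 9 and 10, 3.44 to 6.75 in the others and 0.96 to 3.41 in the selected libraries, and Ly6g had no count in any of the 12. S100a8, a neutrophil calprotectin subunit, stood at 0.482, 0.695, 0.213, 3.47 and 13.5 against 0.099, 0.347 and 0.463, and its labelled difference of -3.53 was -1.90 without replicate 10 and not called without both (adjusted p = 0.484). Csf3r, the receptor of the neutrophil growth factor G-CSF, lay apart at 2.89, 2.06, 1.92, 1.63 and 6.75 against 0.247, 0.53 and 1.098, and its call held without both (-1.61, adjusted p = 0.00513). Macrophage markers were called higher for 1 and lower for 2 of 16, and T and NK cell markers higher for 2 and lower for 0 of 11. Podocyte markers were called higher for 3 and lower for 0 of 12, and endothelial markers higher for 0 and lower for 1 of 12. The macrophage, T and NK cell and endothelial calls did not hold without replicates 9 and 10, and 3 podocyte markers were then called higher. All these calls include the libraries left out. T and NK cell markers summed to 1.32 to 3.24 CPM in the selected libraries, 1.38 to 3.48 in cisplatin and 6.95 to 7.12 in those left out. Podocyte markers summed to 105.9 to 338.0, 138.5 to 213.65 and 293.9 to 340.3 in that order. The median difference of selected minus cisplatin was -0.01 for T and NK cell markers and -0.06 for podocyte markers.

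The 3 libraries left out show how far these differences extend to 7-HCG kidneys with low Mt2. The list median of selected minus left-out libraries was 1.66 for the injury markers, 0.88 for p53 targets and 1.45 for immediate early genes, beside 0.06 for all genes. It was -0.20 for mitochondrial mRNAs, 0.21 for splicing factors, 0.21 for complexes III to V and 0.10 for the proteasome, and 0.65 for fatty acid oxidation. For proximal tubule transporters it was -0.30 and for S3 markers -0.61. These values describe libraries sorted by Mt2, an injury-linked gene, and carry no test. Between the doses of 30 and 15 mg/kg, 0 of 14858 genes were called by edgeR, and 1066 had an unadjusted p under 0.05.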

How the data were processed

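Polyadenylated mRNA of whole kidneys was measured by RNA sequencing. Tools listed in the submitters' processing notes, with no version, are HISAT2, StringTie, FastQC, Trimmomatic and DESeq2, on builds mm10 and GRCm38. How reads were counted, on which strand and with which annotation is not given in the sources used here, so overlapping genes on opposite strands cannot be told apart. Per the file headers, the authors deposited raw read counts for 25638 genes in each library.

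Counts were tested with edgeR 4.0.16 (R 4.3.3, robust quasi-likelihood, TMM, filterByExpr, Benjamini-Hochberg over 14858 genes). The fit held all 20 libraries, with 16 residual degrees of freedom and a common biological coefficient of variation of 0.374. The contrast was the mean of both 7-HCG doses minus cisplatin. Differences of the 7 selected libraries from cisplatin came from a fit of control, cisplatin, selected and left-out libraries, and ± is the SE. A gene lay apart as defined at its first count, with a prior count of 2 for log2 CPM. The main fit was also run on simulated counts with the same mean per gene in all groups, apart from genes given a set change. Those counts lacked the uneven mitochondrial share of the real libraries, and no result here rests on them. Alternatives were other scaling and filters, covariates, DESeq2 1.42.0, leaving out libraries, and the replicate number as a block. Floors of 3 counts cover counting error only. No 2 libraries of a group were repeats of each other: the chi-square per degree of freedom of their counts was at least 28.45 in 40 pairs.

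The selection rule, the gene lists and the rule for named genes were chosen with earlier results of these data known. That rule took the 12 largest rises and 12 largest falls among genes both called and apart, with the same direction in the Mt2-covariate fit and without cisplatin replicates 9 and 10, and a mean of at least 5 CPM. It added a panel of 17 genes and, of each list, the 3 tested genes with the lowest p, 151 genes in all. A few of these are not reported here. The 86 described gene by gene were selected after their values were seen: without cisplatin replicates 9 and 10, 64 of 75 called genes in the text kept their call (85.3%), against 26 of 50 (52.0%) outside it. Gene coordinates are those of the deposited table, promoters are RefSeq's, and transcript lengths are from GENCODE vM21.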

Additional observations from a re-analysis of the deposited data

Results flagged for a closer look

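Within the 5 cisplatin or the 7 selected 7-HCG libraries, 13 of 174 sets of values held 1 library far from the others by Dixon's test on log2 CPM, where chance gives about 1 in 20 (8.7 here). In cisplatin replicate 9 these were Krt20 (2.31), Pdgfra (8.51), Gem (7.35) and Slco2b1 (8.19), the first low and the others high. In cisplatin replicate 10 they were Mapk14 (7.09) and Mapk13 (7.11), both high. Among the selected libraries, replicate 2 at 15 mg/kg was low for mt-Co1 (13.21), Bid (4.79) and Ugt1a7c (2.85). Replicate 5 at 15 mg/kg was high for Cox5a (8.09) and low for Ambp (-0.27) and Kif23 (-0.32), and replicate 8 at 30 mg/kg was low for Clu (9.93). No cause was tested for any of them.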

How the results depend on the processing

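The 6079 genes called between all 7-HCG and cisplatin libraries became 3026 with library totals as the only scaling, 3919 without cisplatin replicates 9 and 10, and 164 with the mitochondrial share as a covariate, which shifts with treatment without overlap. Leaving out 1 library at a time gave 5031 to 6275. With the replicate number as a block 1343 genes were called (598 higher, 745 lower). Same-numbered libraries deviated together by -0.033 to 0.234 (Pearson's r, 6 pairs, controls left out). Pairs of unlike number were not measured beside them, so these values cannot decide whether the numbers mark pairs. The other fits gave 4421 (Mt2 covariate) to 6593 (DESeq2). The 1169 genes apart became 1866 at a 1.5-fold minimum, and 1059 to 1817 when 1 library was left out. The difference in mitochondrial share was -43.32 to -28.03 points when 1 library was left out. Why these counts moved was not tested beyond what each setting removes.

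Of 75 called genes described one by one, 9 held in every fit, and 61 in every fit other than the replicate block and the mitochondrial share. With that share as a covariate the sign of the log2 difference turned to -1.79 for Havcr1, 0.32 for Cdkn1a, -0.50 for Krt20, -0.97 for Clu, -1.60 for Spp1, 0.27 for Atf3, 0.37 for mt-Co1, 0.31 for mt-Nd1, -0.19 for Umod, 0.49 for Mapk13, 0.44 for Dusp1, 0.20 for Nr4a1, 0.02 for Gadd45b, 0.94 for Plk3, 2.08 for Lama2, 1.49 for F2r, 0.69 for Pdgfra, 0.27 for Lox, 0.30 for Ambp, 1.56 for C1s1, 1.34 for Matn2, 0.90 for Slco2b1 and 1.23 for S100a8. With Mt2 as a covariate it turned to 0.40 for Lcn2, 0.76 for Cdkn1a, 0.02 for Bax, 0.05 for Hspa1a and 0.24 for Mapk13. With library totals it was 0.31 for Cdkn1a, 0.00 for Bax, 0.12 for Hspa1a and 0.09 for Mapk13. Without cisplatin replicates 9 and 10 it was 0.18 for Cdkn1a, -0.32 for Spp1 and 0.21 for Mapk13, and with the replicate block -0.39 for Spp1 and 0.21 for Mapk13. Leaving out 1 library at a time also turned the sign of 4 genes that were not called, and gave -0.49 to 0.06 for Cdkn1a, -0.10 to 0.35 for Spp1, -0.43 to 0.06 for Hspa1a and -0.66 to 0.09 for Mapk13. Depth limits Nr4a2, Plk1 and S100a8, whose levels neared the floor of 3 counts.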
